A study of Homo sapiens with 10 samples.

Results

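The epidermal growth factor receptor (EGFR) family was followed through 10 RNA sequencing libraries of A549, a lung adenocarcinoma cell line. The members were chosen by name, with earlier results of these data known. They are 3 receptor genes (EGFR, ERBB2 and ERBB3) and 7 ligand genes (AREG, EREG, HBEGF, TGFA, BTC, EGF and NRG1). These are 10 of the 33551 rows of the count table, and all 10 passed the filter on low counts. The 5 A549 lines were wild type (WT), ABCA3 knockout per its label (KO), and 3 with an ABCA3 variant, namely L101P, E292V and E690K. All were sequenced untreated and after overnight exposure to LV-ABCA3:GFP, a VSVG lentiviral vector for ABCA3 joined to GFP, used at MOI 20 (the multiplicity of infection). ABCA3 is a lipid transporter of surfactant storage organelles, and the series concerns vector correction of type 1 and type 2 pathogenic variants. Each combination of line and treatment has 1 library and each genotype 1 line, and whether a line is a single clone is not given in the sources used here.

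Library totals ran from 59430095 to 96811421 counts. Levels are CPM, a gene's counts per 1000000 counts of library size, with library sizes scaled by TMM (trimmed mean of M-values). The pair labelled KO went against its labels: the library labelled KO untreated held 600.3 CPM of ABCA3 and 37.9 CPM of the EGFP row, and the library labelled KO transduced held 26.0 and 0.0497 CPM. Every direction drawn below from that pair follows its labels. EGFP was also counted in the untreated libraries of the other lines, at 1.01 to 69.7 CPM. It was at 69.7 CPM untreated and 151 transduced in WT, 1.01 and 36.9 in L101P, 20.2 and 66.0 in E292V, and 16.5 and 18.5 in E690K, so the untreated WT library exceeded the transduced libraries of those 3 lines. ABCA3 was higher in the transduced library of WT (356 CPM untreated, 602 transduced), E292V (965 and 1021) and E690K (900.3 and 994). In L101P it was at 1151 CPM untreated and 922 CPM transduced. All libraries of L101P, E292V and E690K were thus above both WT libraries, and the library labelled KO untreated was above untreated WT. The labels call the cells alveolar basal epithelial cells. The simple epithelial keratins KRT7, KRT8 and KRT18 were each at 1587 CPM or more, whereas the basal keratins KRT5 and KRT14 had at most 38 counts. The other simple epithelial markers read were lower, with KRT19 at 61.6 to 473 CPM, EPCAM at 7.62 to 22.5 and CDH1 at 21.8 to 35.4. The basal marker TP63 had 176 to 1178 counts. The surfactant genes SFTPA1, SFTPA2, SFTPB and SFTPC had at most 26 counts. PTPRC, PECAM1 and CD3E, markers of leukocytes, endothelium and T cells, had at most 10 counts. Of the other leukocyte and endothelial markers read, CD68 had 1630 to 4153 counts, VWF at most 12 and CDH5 2 to 91.

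The EGFR family receptors are cell-surface tyrosine kinases that signal as pairs. AREG, EREG, HBEGF, TGFA, BTC and EGF are made as membrane-bound precursors, are cut loose by sheddases and bind EGFR. NRG1 binds ERBB3 and ERBB4, ERBB2 has no known ligand of its own, and ERBB3 has little kinase activity and signals through its partner. Bound receptors drive the RAS, RAF, MEK and ERK kinase cascade, whose transcriptional output includes several of the ligand genes, and EGFR signalling serves growth and repair of the lung epithelium.

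To compare genes with each other, levels were divided by the length of the annotated exons. AREG had the highest geometric mean level over the 10 libraries, at 72.3 CPM per kilobase (kb). EGFR followed at 21.0, EREG at 18.3, ERBB2 at 12.8 and NRG1 at 10.2 CPM per kb. TGFA stood at 4.59, HBEGF at 1.52, BTC at 1.42, ERBB3 at 1.07 and EGF at 0.112 CPM per kb. AREG was the most abundant ligand transcript and EGFR the most abundant receptor transcript by this measure in every library. AREG made up 60.7% to 70.7% of the summed ligand level per kb in single libraries, EREG 15.0% to 18.4% and NRG1 6.21% to 16.4%. EGFR made up 51.6% to 69.6% of the summed receptor level per kb, ERBB2 28.6% to 44.5% and ERBB3 1.75% to 4.70%. Of the relatives outside the 10 members, the receptor ERBB4 had 0 to 8 counts, the ligand EPGN 0 to 20 counts and the neuregulin NRG3 0 counts in every library. NRG2 was at 2.02 to 3.70 CPM and NRG4 at 2.41 to 5.75 CPM.

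The first question was which members differed among the 5 lines. In 1 test over both treatments (edgeR quasi-likelihood F test with Benjamini-Hochberg adjustment over 17978 genes), 7 of the 10 members differed: EGFR, ERBB3, AREG, EREG, HBEGF, TGFA and NRG1. Over all genes tested, 13.0% passed the same test. The members were chosen with earlier results of these data known, so the shares here and below are descriptions. The adjusted p was smallest for EREG at 2.1e-04. ERBB2 (adjusted p = 0.368), BTC (adjusted p = 0.113) and EGF (adjusted p = 0.636) did not pass. Because each line and treatment has 1 library, the spread is measured as the libraries' departure from additive effects of line and vector. A call therefore concerns the particular lines sequenced, since no genotype was sampled in several clones. In bulk RNA, fewer cells of a type and less RNA per cell cannot be told apart.

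**Figure D1:**
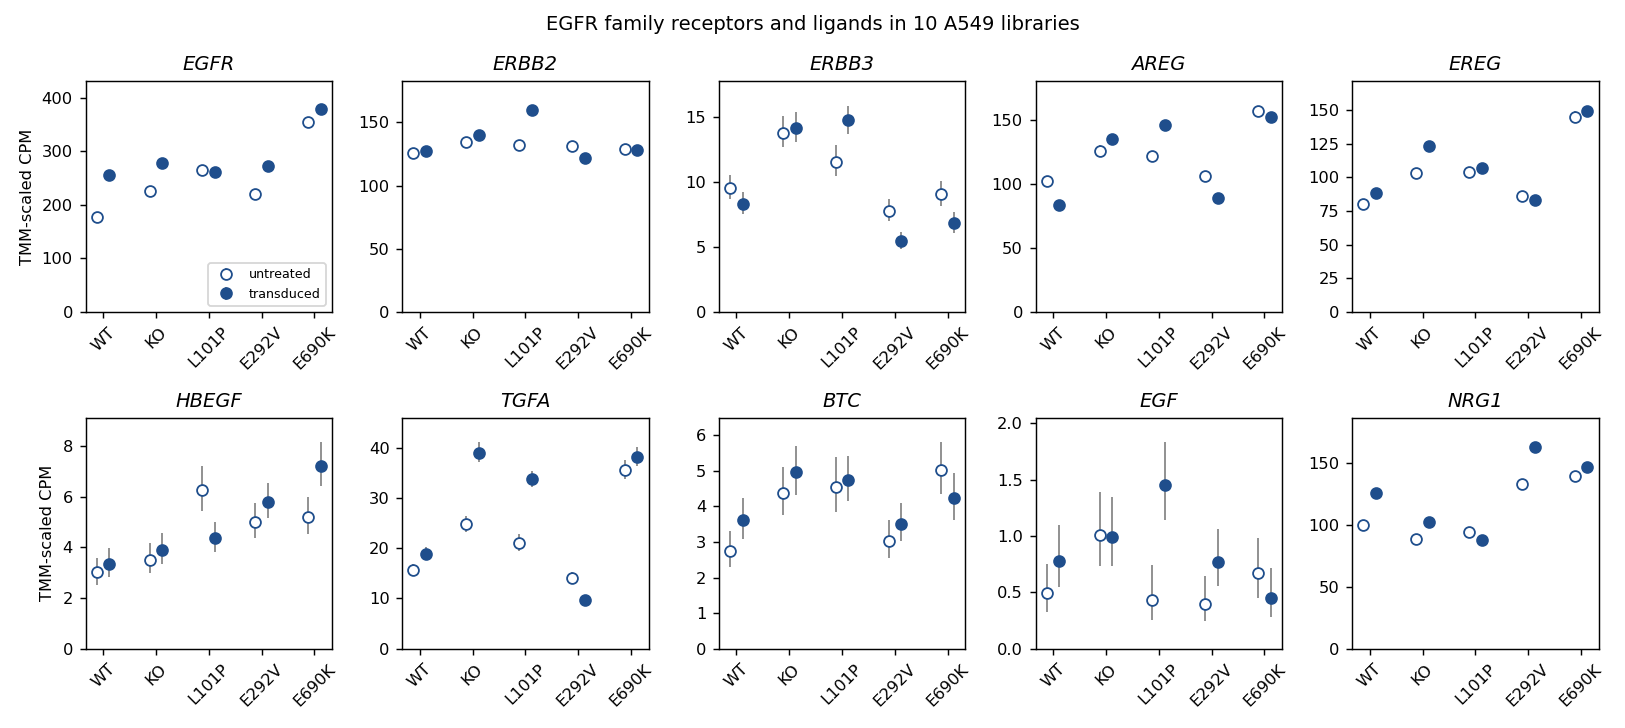
TMM-scaled CPM (vertical axis, from 0) of each member in the untreated (open) and transduced (filled) library of each line; bars are 95% Wilson intervals for counting error. EGFR, AREG and EREG are highest in both E690K libraries, ERBB3 is highest in the KO and L101P libraries, and NRG1 is highest in the E292V and E690K libraries.

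EGFR lies on chromosome 7 from 55019021 to 55211628 on the plus strand (GRCh38, GENCODE 29), and its level separated 1 line from the rest. The E690K libraries held 355 CPM untreated and 379 CPM transduced. WT held 177 and 255 CPM, KO 226 and 278, L101P 265 and 262, and E292V 220.0 and 272 CPM, each untreated first. Both E690K libraries were above the other 8, while the ranges of the neighbouring lines L101P, KO, E292V and WT overlapped in turn. EGFR was 0.78 higher in E690K than in WT on the log2 scale (SE 0.11, 1.72-fold, adjusted p = 0.00145). Against WT, the EGFR differences of KO (0.23, SE 0.11), L101P (0.31, SE 0.11) and E292V (0.20, SE 0.11) did not pass. That of L101P was called without the filter on low counts and by DESeq2. Without the E690K pair the test among the remaining 4 lines gave an adjusted p of 0.315 for EGFR. Counting error was at most 2.26% of the EGFR level. EGFR shares 186 exonic bases with the antisense gene EGFR-AS1, which had 14 to 58 counts.

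ERBB2, the ligandless partner receptor, lies on chromosome 17 from 39687914 to 39730426 on the plus strand. It ranged from 122 CPM in the transduced E292V library to 159.6 CPM in the transduced L101P library, with a median of 129.9 CPM. The highest library was 1.31 times the lowest, the smallest such ratio among the 10 members. ERBB2 shares 571 exonic bases with MIEN1 and 194 with PGAP3, both on the other strand. MIEN1 was at 40.3 to 61.0 CPM and PGAP3 at 14.4 to 23.2 CPM. Strand use in counting is not given in the sources used here, so these reads cannot be told apart.

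AREG (amphiregulin) and EREG (epiregulin) are neighbours in a ligand cluster on chromosome 4. In RefSeq the order is EPGN, EREG, AREG and BTC with no other protein-coding gene between them, and the gaps are 48.4, 56.4 and 290 kb. By GENCODE 29, EREG runs from 74365143 to 74388751 and AREG from 74445134 to 74455009, both on the plus strand. The transcripts of this pair moved together over the lines, and TGFA on chromosome 2 moved with both about as closely. The upstream regions of AREG and EREG are shown. Each is the 250 bases before the gene's start in RefSeq (GRCh38.p14, plus strand, 5′ to 3′), with a TATA box (TATAAA) and, in AREG, a cAMP response element (TGACGTCA) in capitals.
AREG, chr4:74444886-74445135: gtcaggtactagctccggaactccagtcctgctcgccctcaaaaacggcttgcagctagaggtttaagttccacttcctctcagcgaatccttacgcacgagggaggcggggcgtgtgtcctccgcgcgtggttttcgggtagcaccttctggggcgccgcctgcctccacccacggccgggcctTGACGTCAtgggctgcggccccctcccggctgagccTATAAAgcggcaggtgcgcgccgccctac
EREG, chr4:74364895-74365144: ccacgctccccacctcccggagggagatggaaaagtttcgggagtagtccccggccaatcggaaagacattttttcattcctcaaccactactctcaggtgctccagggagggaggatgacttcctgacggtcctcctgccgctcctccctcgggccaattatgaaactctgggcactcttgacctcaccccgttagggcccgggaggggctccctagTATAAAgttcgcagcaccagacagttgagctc
Counted back from the base before the gene's start, the TATA box began at position -29 in AREG and at -32 in EREG, and the cAMP response element at -65 in AREG. Both strands were searched. Of 35116 upstream windows of the same length, 10.7% held TATAAA and 1.65% held TGACGTCA. A match is a description of the letters and not of a factor's binding. The AP-1 motif TGANTCA, present in 6.57% of the windows, was matched in neither. It was matched in 1 of 2 EGFR windows and in the windows of ERBB2 and EGF. Windows were found for 8 of the 10 members.

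AREG was at 157 CPM untreated and 152 CPM transduced in E690K. Here and below the untreated value comes first. AREG was at 122 and 146 CPM in L101P, 126 and 135 in KO, 106 and 88.7 in E292V, and 102 and 83.8 in WT. The lines fell into 3 tiers whose ranges did not overlap: E690K, then L101P with KO, then E292V with WT. EREG was at 145 and 149 CPM in E690K, 103 and 123 in KO, 104 and 107 in L101P, 86.4 and 83.3 in E292V, and 80.0 and 88.2 in WT. The tiers of EREG were the same as those of AREG. Against WT, E690K was higher by 0.73 (SE 0.11, adjusted p = 0.00306) for AREG and by 0.81 (SE 0.08, adjusted p = 2.3e-04) for EREG on the log2 scale. KO was higher by 0.50 (SE 0.11, adjusted p = 0.0497) for AREG and by 0.42 (SE 0.08, adjusted p = 0.0228) for EREG. L101P was higher by 0.53 (SE 0.11, adjusted p = 0.0241) for AREG and by 0.33 (SE 0.08, adjusted p = 0.0431) for EREG. Both ligands were thus called higher than WT in these 3 lines. E292V differed from WT by 0.07 (SE 0.11) and 0.02 (SE 0.08), and neither passed. Without the E690K pair the KO calls were lost (AREG 0.51, adjusted p = 0.114; EREG 0.43, adjusted p = 0.0654), as were those of L101P (AREG 0.54, adjusted p = 0.0659; EREG 0.34, adjusted p = 0.0861). With the KO labels exchanged both KO calls were lost (AREG 0.50, adjusted p = 0.0741; EREG 0.42, adjusted p = 0.0669), as was EREG in L101P (0.33, adjusted p = 0.102), which also missed without the KO pair (0.34, adjusted p = 0.0615). The log2 differences themselves moved by at most 0.01 in these settings. Over the 10 libraries, which are 5 pairs sharing a line, the log2 CPM of AREG and EREG had a Pearson correlation of 0.88. This was not particular to neighbours. TGFA, on another chromosome, had a correlation of 0.87 with AREG and 0.88 with EREG, and EGFR had 0.57 and 0.85.

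Several marker lists also set KO, L101P and E690K above WT and E292V, without the step from E690K to KO and L101P. The summed level of 3 basal cell markers was 4.92 to 8.95 CPM in KO, 5.18 to 12.8 in L101P and 4.92 to 6.57 in E690K, and 2.40 to 3.33 in WT and 3.08 to 3.71 in E292V, most of it TP63. The summed level of 3 leukocyte markers, all of it CD68 but for at most 10 counts of PTPRC, was 31.2 to 31.6 CPM in KO, 29.5 to 44.2 in L101P and 33.8 to 34.0 in E690K. It was 22.7 to 25.2 CPM in WT and 20.1 to 23.5 in E292V. The 6 simple epithelial markers summed to 10266 to 15185 CPM in KO, L101P and E690K and to 7932 to 9448 CPM in WT and E292V. The part of these markers in the AREG and EREG differences was not tested.

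TGFA (transforming growth factor alpha, chromosome 2 from 70447280 to 70554193, minus strand) varied over a wider range. It was at 35.6 CPM untreated and 38.2 transduced in E690K, 24.7 and 39.0 in KO, and 21.0 and 33.7 in L101P. WT held 15.7 and 18.9 CPM and E292V 14.1 and 9.65 CPM. All libraries of E690K, KO and L101P were above those of WT, and those of WT above those of E292V. TGFA was 1.10 higher in E690K than in WT on the log2 scale (SE 0.22, 2.14-fold, adjusted p = 0.0127). The differences of KO (0.87, SE 0.22, adjusted p = 0.0707), L101P (0.65, SE 0.22, adjusted p = 0.130) and E292V (-0.51, SE 0.22, adjusted p = 0.438) did not pass. Without the filter on low counts TGFA was called in KO, L101P and E292V. It was also called in KO and L101P without the E292V pair, and in KO without the L101P pair. Within KO and L101P the transduced library exceeded the untreated one by 0.66 and 0.68 on the log2 scale, so the pairs of these lines spread widely.

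HBEGF (heparin-binding EGF-like growth factor, chromosome 5 from 140332843 to 140346631, minus strand) was a low transcript. It was at 5.20 CPM untreated and 7.23 transduced in E690K, 5.01 and 5.81 in E292V, 6.27 and 4.38 in L101P, 3.52 and 3.90 in KO, and 3.01 and 3.35 in WT. WT held the lowest HBEGF libraries, and the ranges of E690K, E292V and L101P overlapped. E690K was 0.96 higher than WT on the log2 scale (SE 0.22, 1.95-fold, adjusted p = 0.0256). E292V (0.76, SE 0.22, adjusted p = 0.165) and L101P (0.75, SE 0.22, adjusted p = 0.0859) did not pass. Both were called without the filter on low counts, as was E292V without the L101P pair and L101P by DESeq2. The HBEGF test among lines lost its call in 5 of 10 alternative settings, with adjusted p from 0.0608 to 0.192.

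BTC (betacellulin, chromosome 4 from 74744759 to 74794686, minus strand), the neighbour of AREG, ranged from 2.75 CPM in untreated WT to 5.03 CPM in untreated E690K. Its line ranges were 4.37 to 4.98 CPM in KO, 4.56 to 4.74 in L101P and 4.23 to 5.03 in E690K, all above 3.04 to 3.52 in E292V and 2.75 to 3.62 in WT. The BTC ranges of KO, L101P and E690K overlapped one another, and none of its contrasts passed. EGF (chromosome 4 from 109912884 to 110012266, plus strand), the founding ligand of the family, had 26 to 136 counts. Its 0.395 to 1.45 CPM carried counting intervals of up to 56.3% of the level. The L101P libraries, at 0.436 and 1.45 CPM, had intervals of 0.255 to 0.745 and 1.14 to 1.83 CPM that did not overlap, so libraries of 1 line spread beyond counting error. No EGF contrast among lines passed.

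NRG1 (neuregulin 1, chromosome 8 from 31639386 to 32767959, plus strand) and its receptor ERBB3 (chromosome 12 from 56076799 to 56103505, plus strand) divided the lines in opposite directions. NRG1 was at 133 CPM untreated and 163 transduced in E292V and at 139.6 and 147 CPM in E690K. It was at 99.8 and 126 CPM in WT, 88.5 and 103 in KO, and 94.7 and 88.1 in L101P. Every E292V and E690K library was above the other 6. ERBB3 was at 13.8 and 14.2 CPM in KO, 11.6 and 14.8 in L101P, 9.60 and 8.35 in WT, 9.12 and 6.86 in E690K, and 7.80 and 5.44 in E292V. The KO and L101P libraries were above the other 6 for ERBB3. WT was thus in the lower group for both genes. No contrast of either with WT passed the edgeR test with all libraries and the filter on low counts. For NRG1 the differences were 0.39 in E292V (SE 0.10, adjusted p = 0.0972) and 0.35 in E690K (SE 0.10, adjusted p = 0.0615). For ERBB3 they were 0.65 in KO (SE 0.18, adjusted p = 0.108) and 0.57 in L101P (SE 0.18, adjusted p = 0.115). These results depended on the setting. NRG1 in E292V and in E690K, and ERBB3 in KO, were called without the filter, without the L101P pair and by DESeq2. In L101P, ERBB3 was called without the filter and by DESeq2, and NRG1 without the filter.

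L101P is regarded as a type 1 variant, which misfolds and does not reach its compartment. E292V and E690K are regarded as type 2 variants, which reach their compartment but transport poorly. Set against the mean of E292V and E690K, L101P was 0.88 higher on the log2 scale for ERBB3 (SE 0.16, 1.84-fold, adjusted p = 0.00694). For NRG1 it was lower by 0.67 on the log2 scale (log2 fold change -0.67, SE 0.09, adjusted p = 0.00165). These were 2 of 10 members, against 5.79% of all genes tested, and each kept its call in the 7 alternative settings that could be run. With 1 line of type 1 and 2 of type 2, variant type and line cannot be told apart. The fibroblast list summed to 75.4 to 119 CPM in E292V and 16.5 to 24.4 CPM in L101P, most of it COL1A1, with 25.1 to 35.2 CPM in E690K and COL1A2 and DCN at most at 22 counts. The part of these markers in the ERBB3 and NRG1 differences was not tested. Over the 10 libraries the log2 CPM of ERBB3 and NRG1 had a Pearson correlation of -0.92, the most negative of the 45 pairs of members.

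**Figure D2:**
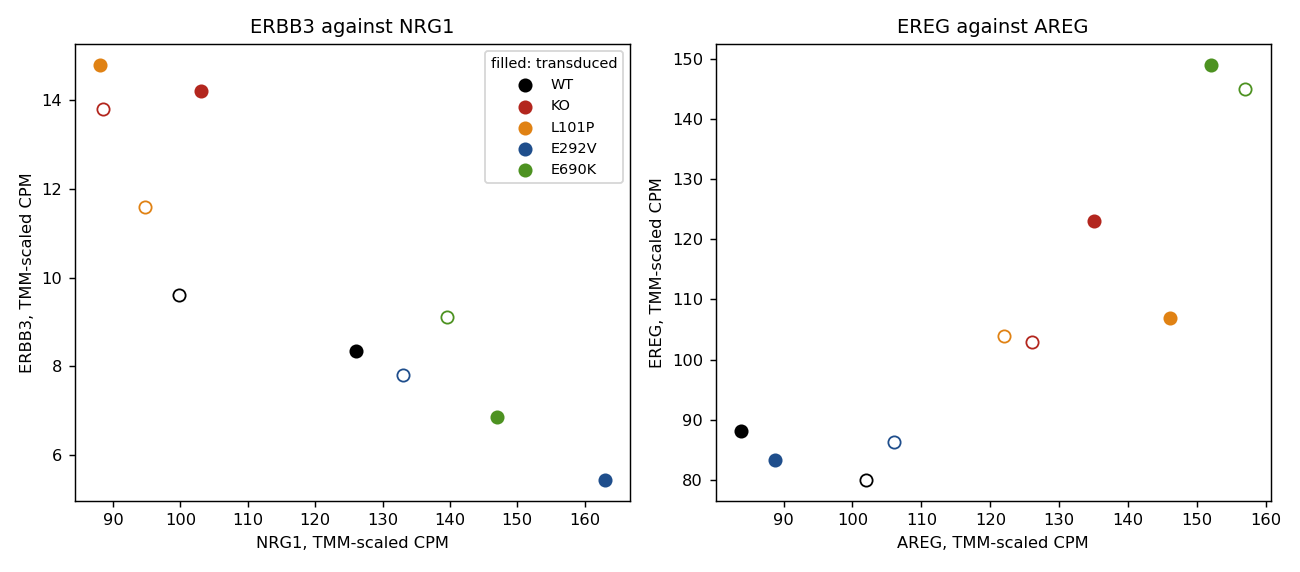
TMM-scaled CPM of ERBB3 against NRG1 (left) and of EREG against AREG (right), 1 point for each library, coloured by line, open for untreated and filled for transduced. ERBB3 falls from 14.8 to 5.44 CPM as NRG1 goes from 88.1 to 163 CPM, and the E690K libraries hold the highest AREG and EREG.

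Across the line contrasts, E690K carried the most member calls. In E690K against WT, 5 of the 10 members were higher (EGFR, AREG, EREG, HBEGF and TGFA) and none was lower, against 5.38% of all genes. The median log2 difference of the 10 members was 0.64, and that of all genes tested was -0.02. All 5 calls were kept in the 8 alternative settings. KO against WT and L101P against WT each had 2 of 10 members higher, AREG and EREG, with 1.80% and 3.94% of all genes called. The members' medians were 0.46 in KO and 0.52 in L101P, and those of all genes were -0.01 in both. In E292V against WT 0 of 10 members passed the edgeR test, and 1.05% of all genes did. There 4 members had an unadjusted p under 0.05, and DESeq2 called 1, NRG1. The members' median was 0.03. These contrasts share the WT libraries. Without the E690K pair 0 members were called in KO and 0 in L101P by edgeR, and with the KO labels exchanged 0 in KO and 1 in L101P. Without the KO pair 1 was called in L101P, and without the L101P pair 4 in KO and 2 in E292V. Without the filter on low counts 4 were called in KO, 7 in L101P and 3 in E292V, and by DESeq2 3 in KO and 5 in L101P. In E690K 6 were called without that filter, without the L101P pair and by DESeq2, with NRG1 added. Without the E292V pair 3 were called in KO and 3 in L101P.

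**Figure D3:**
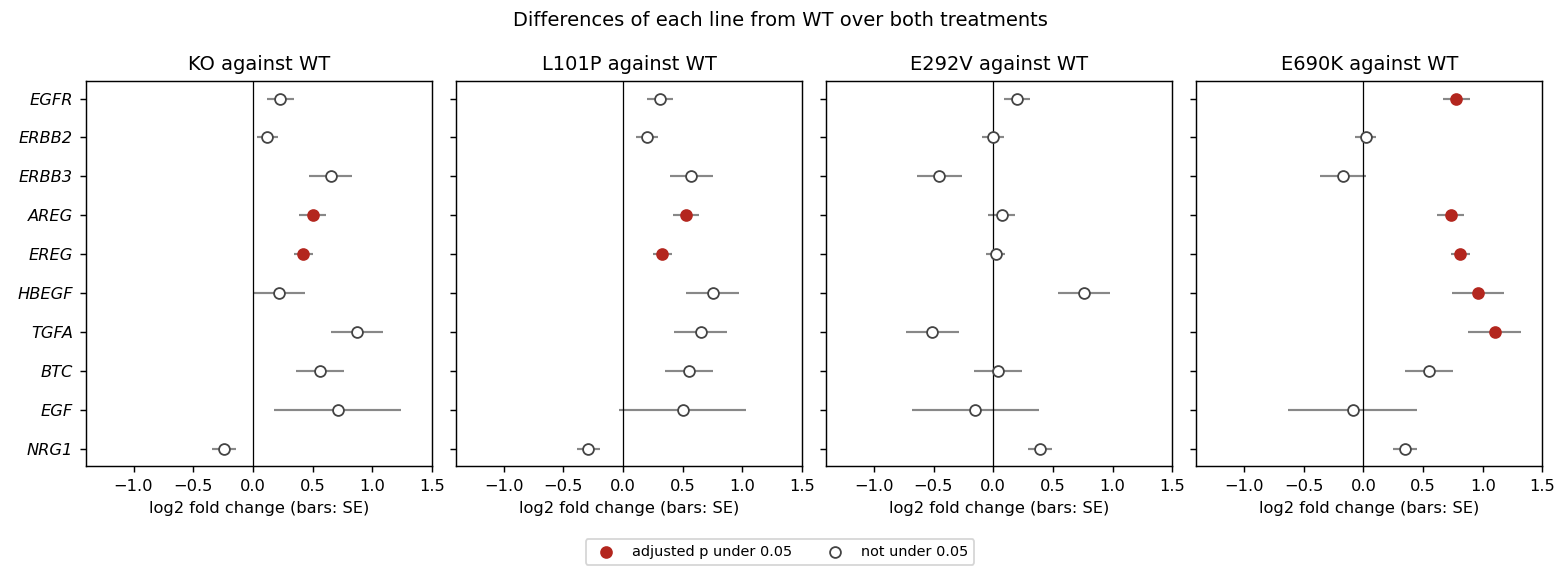
Log2 fold change of each member in the 4 other lines against WT over both treatments (points), with SE (bars); filled points have an adjusted p under 0.05. In E690K 5 points are filled, from 0.73 to 1.10, whereas no point is filled in E292V.

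The second question was whether the vector changed the family. The vector effect had 0 of 10 members and 0% of all genes called by edgeR, with the 5 lines as replicates and line as a block. As given above, the EGFP and ABCA3 counts separated the treatments unevenly, with E690K at 16.5 and 18.5 CPM of EGFP and the KO pair against its labels. At an unadjusted p under 0.05 there were 2 members, EGFR and NRG1, and 1236 genes, and DESeq2 called 118 genes and 0 members. EGFR was 0.24 higher with the vector on the log2 scale (SE 0.07, adjusted p = 0.401) and was higher in 4 of 5 lines. Its log2 change was 0.53 in WT, 0.30 in both KO and E292V, 0.09 in E690K and -0.02 in L101P. NRG1 was 0.16 higher (SE 0.06, adjusted p = 0.609), also in 4 of 5 lines, with L101P the exception at -0.10. Without the L101P pair both passed, EGFR at 0.31 (adjusted p = 0.0176) and NRG1 at 0.23 (adjusted p = 0.0373), and EGFR passed without the filter on low counts (adjusted p = 0.00920). With the labels of the KO pair exchanged the EGFR effect was 0.12 and the NRG1 effect 0.08 (adjusted p = 1.00 for each).

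The vector changes of the other members differed in sign between lines. TGFA changed by 0.27 in WT, 0.66 in KO, 0.68 in L101P and 0.10 in E690K, and by -0.55 in E292V. ERBB3 changed by 0.34 in L101P and 0.04 in KO, and by -0.20 in WT, -0.41 in E690K and -0.52 in E292V. ERBB3 and AREG were higher with the vector in KO and L101P and lower in the other 3 lines. Whether the vector effect differs between lines was not tested.

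**Figure D4:**
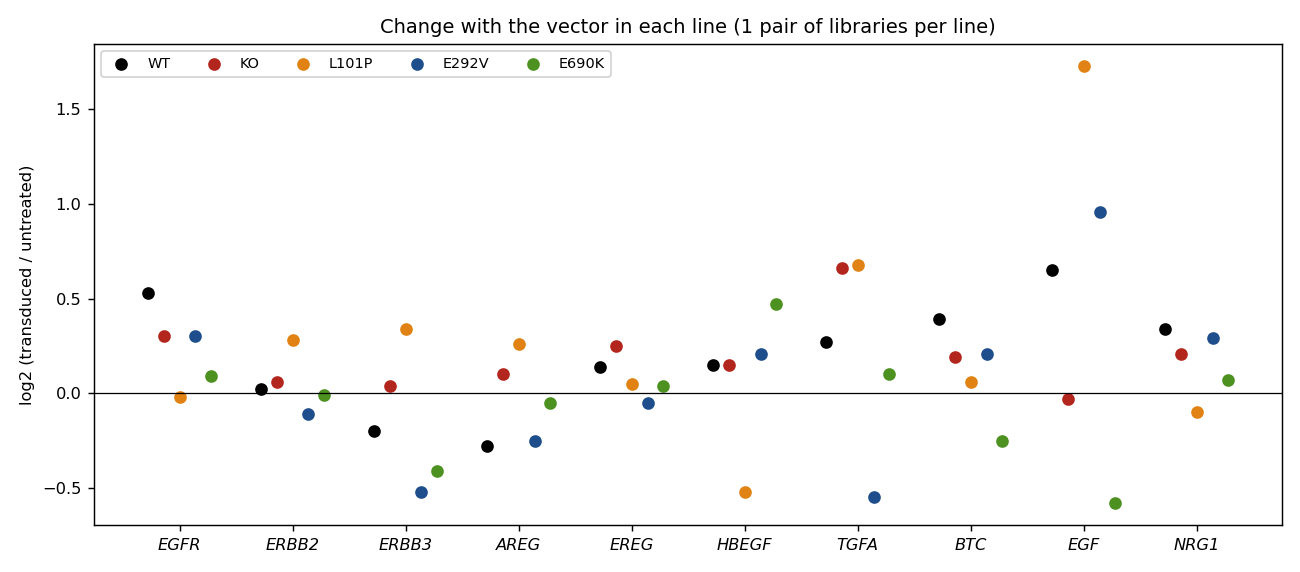
Log2 ratio of the transduced to the untreated library for each member, 1 point for each line. EGFR and NRG1 lie above 0 in 4 of 5 lines, and EGF spreads from -0.58 to 1.73 at 26 to 136 counts.

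The remaining genes of the pathway were read from a list of 59, of which 57 passed the filter. This list too was chosen with earlier results of these data known. Among the lines, 15 of the 57 differed, against 13.0% of all genes, and 9 of the 15 were target transcripts. Without the E292V pair 8 of the list differed. Of the immediate targets, genes induced early after receptor activation, 4 of 5 differed: EGR1, FOS, FOSL1 and IER3. Of 10 transcripts used as a readout of the MAPK pathway, 5 differed: PHLDA1, DUSP4, CCND1, EPHA2 and ETV4. Of 6 sheddases and their helpers 2 differed (ADAM12 and RHBDF1), of 14 inhibitors and turnover factors 2 (LRIG1 and SPRED1), of 19 adaptors and core kinases 2 (ARAF and MAPK3), and of the 3 tested family relatives 0, the last with no call by edgeR.

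In E690K against WT, 6 of the 57 were higher and 1 lower, against 5.38% of all genes called. The list median was 0.09 and that of all genes -0.02. FOSL1, an AP-1 subunit, was at 102 and 115 CPM in E690K against 42.4 and 49.8 CPM in WT, 1.24 higher on the log2 scale (SE 0.09, adjusted p = 1.8e-05). EGR1, a zinc-finger immediate early factor, was at 8.43 and 8.31 CPM against 1.53 and 1.68 CPM, 2.39 higher (SE 0.26, adjusted p = 2.8e-04). Both E690K libraries were above both WT libraries for these genes. The other 4 higher genes were among the 10 readout transcripts of the MAPK pathway. They were PHLDA1 (0.55), DUSP4 (0.51, adjusted p = 0.0416 by edgeR), CCND1 (0.41) and EPHA2 (0.49). The rest of the readout did not pass: EPHA4 (2.53, SE 0.76), SPRY2 (0.39), DUSP6 (0.02), ETV4 (-0.01), SPRY4 (-0.07) and ETV5 (-0.07). MAPK3, which encodes the kinase ERK1, was at 19.2 and 17.9 CPM against 27.3 and 27.8 CPM (log2 fold change -0.57, SE 0.11, adjusted p = 0.0112).

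EGR1 was also called in KO and L101P. It was at 6.45 and 7.78 CPM in KO (2.15 higher than WT, SE 0.25, adjusted p = 0.00204) and was the 1 of 57 called there, against 1.80% of all genes. In L101P 5 of 57 were higher and 1 lower, against 3.94% of all genes called. EGR1 was at 3.62 and 6.27 CPM (1.62 higher, SE 0.25, adjusted p = 0.00541). DUSP4, a phosphatase of ERK, was 0.54 higher (SE 0.13, adjusted p = 0.0416), a call lost without the KO pair (adjusted p = 0.0696), without the E690K pair (0.0987) and with the KO labels exchanged (0.0640). MAPK3 was at 18.0 and 19.6 CPM in L101P (log2 fold change -0.55, SE 0.11, adjusted p = 0.0187). Without the KO pair, without the E690K pair or with the KO labels exchanged 2 of the list were called in L101P. In KO, 7 were called without the L101P pair, 2 without the E292V pair, 7 without the filter and 6 by DESeq2.

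In E292V against WT 1 of 57 was called, a share near the 1.05% of all genes. ARAF, a RAF kinase gene on the X chromosome, was at 62.8 and 62.3 CPM against 98.6 and 90.2 CPM in WT (log2 fold change -0.59, SE 0.08, adjusted p = 0.00884). EGR1 was at 1.85 and 1.33 CPM in E292V, next to the WT values. Without the L101P pair 6 of the list were called in E292V, as also without the filter, and 4 by DESeq2.

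In L101P against the mean of E292V and E690K, 6 of 57 were higher and 3 lower, against 5.79% of all genes called. ETV4, an ETS factor of the MAPK readout, was 0.53 higher (SE 0.11, adjusted p = 0.0176). Against WT, ETV4 differed by -0.61 in E292V (adjusted p = 0.0545), 0.22 in L101P (adjusted p = 0.414) and -0.01 in E690K. None of these passed, and the largest was the lower level of E292V. The L101P libraries (104 and 117 CPM) were above those of both type 2 lines, with E292V lowest at 75.1 and 50.7 CPM. FOS was 0.81 higher in L101P than the mean of E292V and E690K (SE 0.20, adjusted p = 0.0326). That call was lost without the KO pair (adjusted p = 0.0640) and with the KO labels exchanged (0.0830). The FOS libraries of L101P (2.53 and 4.13 CPM) were above those of E292V (1.41 and 1.60) but overlapped those of E690K (1.85 and 2.84). FOSL1 was lower (log2 fold change -0.43, SE 0.08, adjusted p = 0.00879), a call lost with the KO labels exchanged (adjusted p = 0.0790). Its L101P libraries, at 53.7 and 63.4 CPM, lay within the E292V range of 47.3 to 68.1 CPM. Only E690K was higher, at 102 and 115 CPM, so L101P was not below both type 2 lines. ADAM12, a sheddase that can release HBEGF, was at 1.71 and 1.81 CPM in L101P. It was at 3.82 and 12.2 CPM in E292V and 2.94 and 4.22 CPM in E690K (log2 fold change -1.52, SE 0.31, adjusted p = 0.0137). With the KO labels exchanged 4 of the list were called and without the KO pair 5. The vector effect had 0 of 57 called by edgeR and 1 by DESeq2, with 3 without the filter or without the L101P pair.

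**Figure D5:**
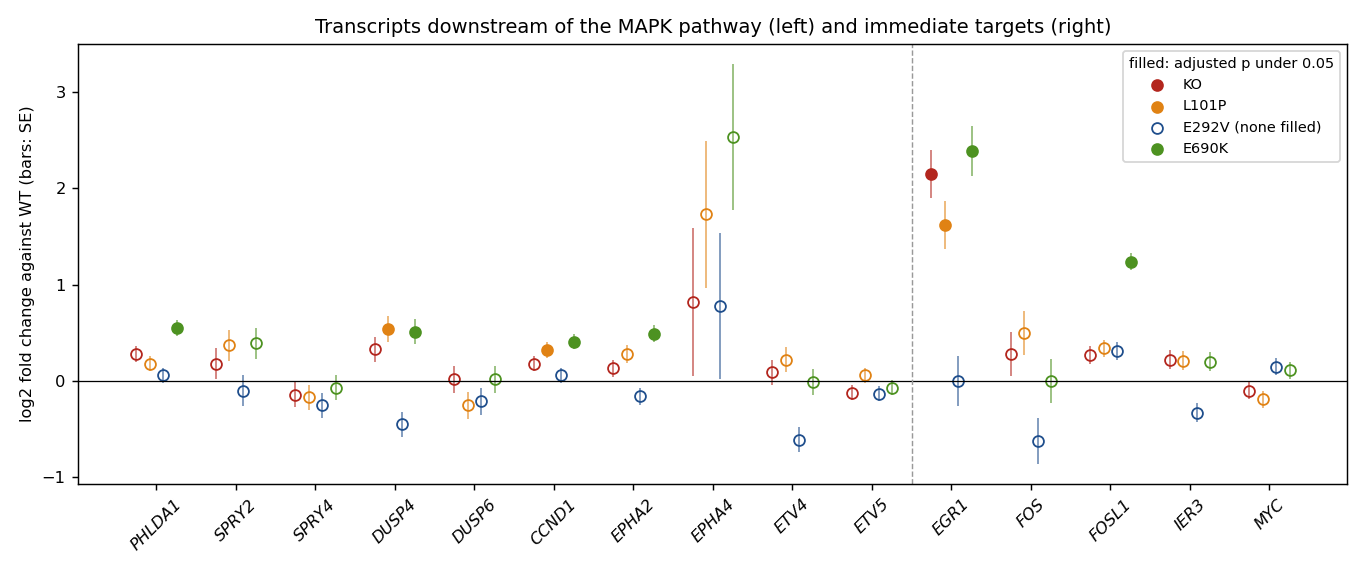
Log2 fold change against WT of 10 MAPK readout transcripts (left of the dashed line) and 5 immediate targets (right), in 1 colour for each of the 4 other lines, with SE as bars; filled points have an adjusted p under 0.05. EGR1 is filled in KO, L101P and E690K at 1.62 to 2.39, and FOSL1 in E690K at 1.24.

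The genes whose levels most resembled those of the members were sought among 11960 tested genes with an average log2 CPM of at least 1, for the 3 members with the smallest p among lines. The measure was the Pearson correlation of log2 CPM over the 10 libraries, which are 5 pairs sharing a line, and it is given as a description. Most like EREG were PAPD7 (0.99), the heparan sulfate proteoglycan SDC4 (0.98) and PHLDA1 (0.98). Most like NRG1 were the Notch ligand JAG1 (0.98), the monocarboxylate transporter SLC16A1 (0.97) and PHLDB2 (0.96). Most like TGFA were FAM83H (0.98), AP1S3 (0.98) and the glucose transporter SLC2A1 (0.98). SDC4 ranged from 51.6 to 93.0 CPM, JAG1 from 81.3 to 139 CPM and SLC2A1 from 124 to 268 CPM.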

How the data were processed

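The deposited table holds raw whole-number counts per gene for 10 libraries, per the file headers and values. Per the submitters' processing notes, the authors used featureCounts (Subread), edgeR, limma and GRCh38; the aligner and annotation release are not given in the sources used here. Per the labels' protocols, libraries came from a total-RNA kit. Coordinates and exon lengths are from GENCODE 29 (98.7% of row names matched).

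The analysis here used edgeR 4.0.16 (R 4.3.3): filterByExpr (17978 genes), TMM (factors 0.972 to 1.03), and 1 additive quasi-likelihood fit of line and vector (4 residual degrees of freedom), adjusted by Benjamini-Hochberg at 0.05. The SE is the log2 fold change over the square root of F. The lines are the replicates and block of the vector effect. Common dispersion was 0.0168. The fit was also run on counts simulated at this fixed dispersion with known changes in E690K, and the outcome is not given here. The simulated counts held no vector effect and no departure from additivity, so that run cannot test the fit for those. Depth was 59430095 to 96811421 counts. Since 81.4% of values from 1 to 10 were even, 95% Wilson intervals use the count divided by 2; they cover counting error only. Alternatives were DESeq2 1.42.0 and its size factors, no filter, at least 10 counts in every library, each line pair left out, the KO labels exchanged, and no block. Members and lists were chosen with earlier results of these data known. The named pathway genes are the 2 higher and 2 lower with the largest change among those with adjusted p under 0.05 and average log2 CPM of at least 1; others are named from short counts after their values were seen.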

Additional observations from a re-analysis of the deposited data

Results flagged for a closer look

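EGFR in the 5 transduced libraries had 1 value apart from the rest. E690K stood at 8.57 on the scale of log2 CPM, the nearest of the other lines at 8.12 and the farthest at 8.00. The gap to the nearest was 0.786 of the whole range, and the limit for 5 values is 0.71. This was 1 of 30 sets of 5 values examined (10 members in untreated libraries, in transduced libraries and as vector changes), and chance passes the limit in about 1 in 20 sets.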

How the results depend on the processing

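Of the called log2 differences of members between lines, 78 values under alternative settings kept their direction and call and 8 kept the direction and lost the call. Of the called tests among the 5 lines, whose F has no direction, 64 kept the call and 6 lost it. Of the vector effects of the 10 members, 102 kept direction and call, 3 gained a call and 5 changed sign. The changes of sign were ERBB2 without the L101P pair (-0.01), AREG without the WT pair (0.01) and without the E292V pair (0.00), and, with the KO labels exchanged, EREG (-0.01) and TGFA (-0.03); the cause was not tested. Over the pairs left out in turn, the vector effect ran from -0.01 to 0.08 for ERBB2 and from -0.12 to 0.01 for AREG.

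Without the filter on low counts, genes called were 3661 among lines, 982 for KO, 1437 for L101P, 662 for E292V, 1659 for E690K, 1707 for L101P against the mean of E292V and E690K, and 237 for the vector; members called were 4 in KO, 7 in L101P, 3 in E292V and 1 for the vector. DESeq2 called 1463 genes for E690K, 1227 for L101P, 740 for KO, 429 for E292V and 118 for the vector. Its member calls were 6 in E690K, 5 in L101P, 3 in KO and 1 in E292V. With the KO labels exchanged, genes called were 599 for E690K, 367 for L101P, 142 for KO and 105 for E292V, and members called were 0 in KO and 1 in L101P. Leaving out 1 line pair at a time gave 931 to 3730 genes among lines, 147 to 1124 for KO, 367 to 732 for L101P, 57 to 689 for E292V, 639 to 1993 for E690K, 683 to 939 for L101P against the mean of E292V and E690K, and 0 to 133 for the vector; fewer libraries enter each such fit. Members called then ranged from 5 to 6 for E690K, 0 to 4 for KO, 0 to 3 for L101P, 0 to 2 for E292V and 0 to 2 for the vector. A contrast could not be fitted without one of its own lines. No paired analysis by replicate number was possible because each line and treatment has 1 library with no number; the line served as the block, and without that block the EGFR vector effect was 0.22 (adjusted p = 1.00). EGF had 26 to 136 counts, and its counting intervals were the widest of the members.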
